A study of Mus musculus with 24 samples.

Results

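The 36 genes described here encode the folding, export and stress-sensing machinery of the endoplasmic reticulum. They were taken as a list of gene symbols, and every probe set that the array's annotation assigned to 1 of these genes alone was used. All 36 genes were found, on 89 of the 45101 probe sets, with 1 to 6 probe sets per gene. The list was not drawn from the measured values, although it was chosen with earlier results of these arrays known. In role, 22 probe sets of 9 genes belonged to chaperones, 10 of 6 genes to disulfide isomerases and related luminal proteins, 17 of 6 genes to translocation and signal cleavage, 2 of 1 gene to retrieval from the Golgi, 20 of 8 genes to degradation, 11 of 3 genes to the stress sensors, and 7 of 3 genes to the transcriptional arm.

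RNA came from B cells of the spleen of female mice aged 7 weeks, of the strains NOD/ShiLtJ (NOD), which develops autoimmune diabetes, and C57BL/6/J (B6), the comparison strain. The labels name no transgene, allele or treatment for either strain. Cells from pools of 8 mice of a strain were depleted of cells bearing CD3 or CD11b and sorted by flow cytometry into 6 subsets: the transitional cells T1, T2FO, T3 and T2MZ and the mature follicular (FO) and marginal zone (MZ) cells. The experiment was done 2 times, which gave 2 arrays in each of 12 groups, 24 arrays in all. Each deposited value is a log2 value minus the median of its probe set over the 24 arrays, so 0 is the middle array and no expression level can be read.

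The labels of the NOD groups need a caution before any result. Cr2, which encodes the sort marker CD21/35, and the marginal zone genes Tlr3 and S1pr3 were highest among NOD groups in the arrays labelled T1, and Cr2 was lowest in those labelled T2FO (Cr2 group means 1.20 and -1.29). NOD groups are therefore called by their labels only. Centred values cannot show that B cell genes were present, but the median of 4 such genes stayed within -0.65 to 0.32 on all arrays. Single genes varied more in B6, where Cd79a ran from -3.08 to 0.31, Pax5 from -2.53 to 0.74 and Cd79b from -1.38 to 0.51. Ms4a1 stayed within -0.12 to 0.33 there. In NOD Cd79a ran from -0.28 to 0.62 and Pax5 from -0.45 to 0.25. The medians of T cell, dendritic cell, and red cell and platelet genes did not exceed 0.61 on any array. The 5' signal of the beta-actin control was low in 6 B6 arrays, 1 in each B6 group (-4.04 to -3.27, against -1.36 to 0.47 in the other 6 and -0.54 to 0.79 in NOD). The spread between the replicates of a group (root mean square) was 0.60 in B6 and 0.36 in NOD over the members. Both were larger than over all probe sets, where they were 0.45 and 0.26.

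Proteins that enter the secretory pathway cross the membrane of the endoplasmic reticulum through the Sec61 channel, are folded by chaperones and disulfide isomerases, and are returned to the cytosol for degradation when folding fails. When unfolded protein builds up, the sensors IRE1 (Ern1), PERK (Eif2ak3) and ATF6 start the unfolded protein response, in which the factors XBP1, ATF6 and ATF4 induce the genes of this machinery. In the B lineage the response is known above all from plasma cells, whose secretion of antibody depends on it.

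Some members share a sequence feature in their promoters, shown here because it divides the list independently of the arrays. The endoplasmic reticulum stress element, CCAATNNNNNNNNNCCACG (both strands searched, in the 250 bases before to 50 bases after the start of each RefSeq gene, GRCm38.p6), was found in 9 of the 29 members that the promoter table holds (31.0%) and in 37 of its 27025 genes (0.137%). These 37 include the 9. The copies are given 5' to 3' in the direction of the element, with CCAAT and CCACG in capitals and the 9 spacer bases in lower case.
Calr: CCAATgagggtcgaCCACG
Canx: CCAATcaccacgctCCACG
Creld2: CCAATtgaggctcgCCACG
Derl3: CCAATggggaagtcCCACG
Dnajc3: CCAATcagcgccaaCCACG
Hsp90b1: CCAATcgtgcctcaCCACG
Hsp90b1: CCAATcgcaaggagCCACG
Hspa5: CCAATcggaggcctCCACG
Pdia6: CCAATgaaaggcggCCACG
Syvn1: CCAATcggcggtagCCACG
Hsp90b1 held 2 copies, both within 212 bases of its start. A second form, ATTGGNCCACG, was found in Dnajb11 and Herpud1, that is in 6.90% of the 29 against 0.0444% of all genes. The short box CCACG, which both elements contain, was in 24 of the 29 (82.8%, against 35.5% of all genes), and ACGTG was in 13 (44.8%, against 21.8%). TGATGNAAN, a loose form of the element that ATF4 binds, was in 3, namely Herpud1, Trib3 and Txndc5 (10.3%, against 4.50%).

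The whole promoters of 3 genes are shown because their genes recur in the results, with the elements in capitals. Creld2 lies at chr15:88819396-88819695 on the plus strand, Hsp90b1 at chr10:86705395-86705694 on the minus strand and Herpud1 at chr8:94386179-94386478 on the plus strand. Creld2 and Hsp90b1 hold the first element and Herpud1 the second form.
Creld2: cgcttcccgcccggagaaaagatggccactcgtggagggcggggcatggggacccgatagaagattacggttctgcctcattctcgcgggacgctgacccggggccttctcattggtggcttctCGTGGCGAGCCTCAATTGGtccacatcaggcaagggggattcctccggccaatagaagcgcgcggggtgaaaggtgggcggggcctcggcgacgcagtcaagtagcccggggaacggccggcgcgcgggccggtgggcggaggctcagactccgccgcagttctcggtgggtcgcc
Hsp90b1: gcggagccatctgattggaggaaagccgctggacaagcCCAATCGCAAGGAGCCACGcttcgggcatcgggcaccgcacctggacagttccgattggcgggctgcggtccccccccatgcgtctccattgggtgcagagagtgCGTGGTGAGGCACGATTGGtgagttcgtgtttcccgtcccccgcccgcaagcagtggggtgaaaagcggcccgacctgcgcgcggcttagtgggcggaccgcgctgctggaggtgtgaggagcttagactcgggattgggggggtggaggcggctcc
Herpud1: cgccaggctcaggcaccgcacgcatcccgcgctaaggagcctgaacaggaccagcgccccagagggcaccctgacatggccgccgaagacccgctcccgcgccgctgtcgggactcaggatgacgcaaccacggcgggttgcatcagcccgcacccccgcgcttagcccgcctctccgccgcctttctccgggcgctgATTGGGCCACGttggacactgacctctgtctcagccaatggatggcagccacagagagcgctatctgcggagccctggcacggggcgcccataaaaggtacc
The copy in Creld2 lies 126 to 108 bases before the start, and the element of Herpud1 lies 52 to 42 bases before it.

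Of the NOD labels only T2FO and T1 were set against the rest. They were chosen because earlier results had shown plasma cell and marginal zone transcripts in them, so the labels are not ranked here. In the NOD arrays labelled T2FO 9 probe sets of 7 genes were higher than the mean of the other 5 NOD groups. The number lower was 0 (limma, Benjamini-Hochberg adjusted over 45037 probe sets). The share is 10.1% of the members, against 1.64% of all probe sets called in either direction and 0.675% called higher. The 7 genes span chaperones (Hsp90b1, Dnajc3), luminal oxidoreductases (Txndc5, Creld2), the translocation channel (Sec61a1) and the removal of misfolded glycoproteins (Edem1, Sel1l). Of all 89 members, 70 were above 0 in this comparison, with a median difference of 0.26, against 47.1% above 0 and a median of -0.02 over all probe sets.

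Among the chaperones, Hsp90b1, the endoplasmic reticulum member of the HSP90 family, read 2.04 and 1.92 on the 2 arrays labelled T2FO with probe set 1438040_a_at. The other 10 NOD arrays lay between -0.16 and 1.30, with a median of 0.79, so the groups did not overlap. The difference was 1.39 ± 0.13 (SE, log2), with an adjusted p of 0.0023 in limma. Dnajc3, a co-chaperone that also restrains PERK, read 1.01 and 1.39 with 1449372_at, above the -0.31 to 0.72 of the other NOD arrays (difference 0.92 ± 0.15). Not every probe set of these genes followed: the second one of Hsp90b1 differed by 0.43, and the other 4 of Dnajc3 by -0.34 to 0.14. Hspa5, which encodes BiP, the main chaperone and the gatekeeper of the sensors, did not pass the test on any of its 3 probe sets, with differences of 0.12 to 0.16.

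Among the luminal oxidoreductases, Txndc5, a disulfide isomerase abundant in antibody-secreting cells, had the largest difference of any member. Its probe set 1423746_at read 3.08 and 3.70 in the arrays labelled T2FO and at most 1.85 in the other NOD arrays, a difference of 2.91 ± 0.31 (adjusted p = 0.0043, limma). The second probe set, 1451091_at, rose by 1.09 ± 0.17. Creld2, a stress-induced isomerase, read 1.49 and 1.57 with its only probe set, against -0.34 to 0.77 in the other NOD arrays (difference 1.37 ± 0.17). Manf, a secreted protein retained in the lumen, lay above all other NOD arrays as well (0.70 and 0.75, against at most 0.52), but its difference of 0.56 missed the threshold. Pdia3, Pdia4 and Pdia6, the larger disulfide isomerases, had differences of -0.06 to 0.36 and none passed.

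**Figure D1:**
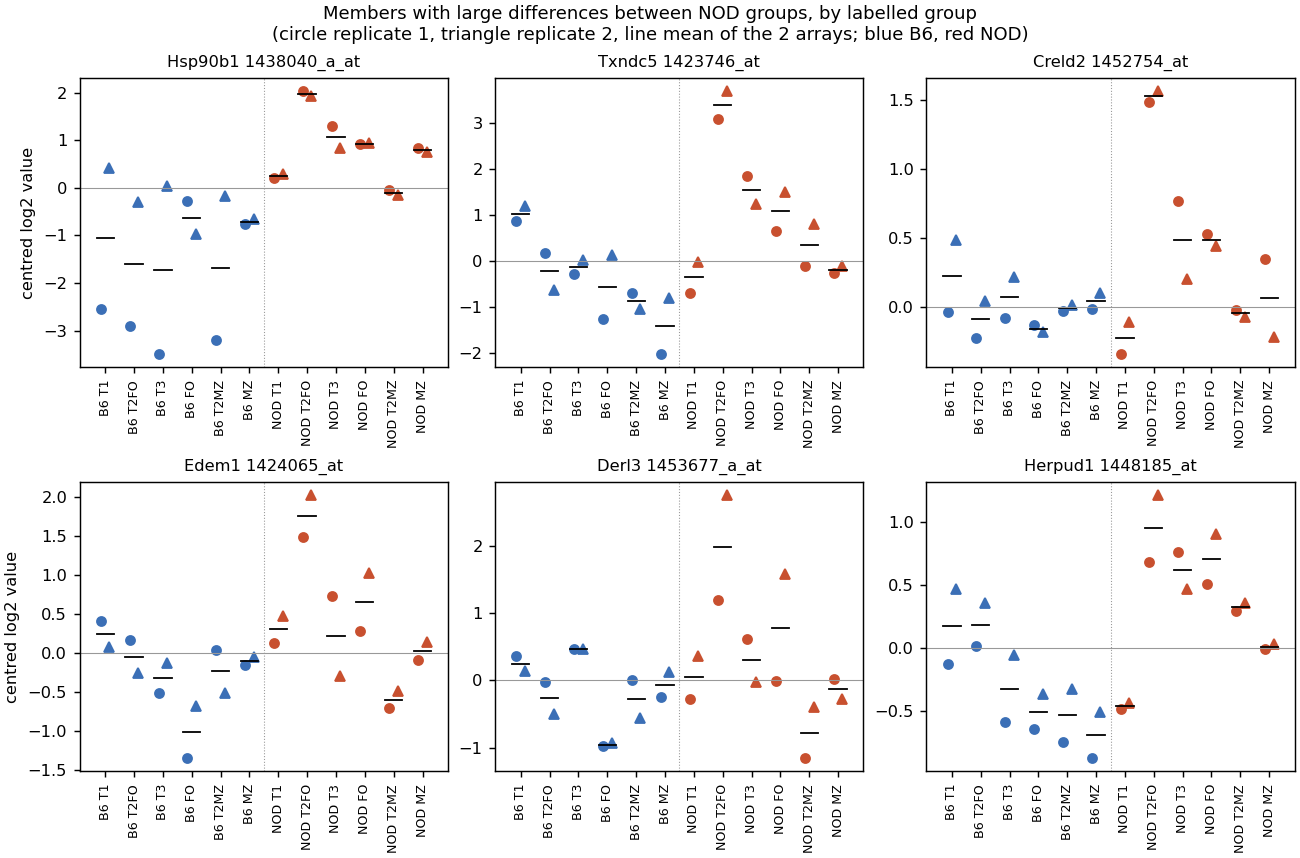
Centred log2 values of 6 member probe sets on the 24 arrays, by labelled group, with B6 in blue and NOD in red; circles are replicate 1, triangles replicate 2 and lines the mean of the 2 arrays. The 6 genes were picked for large differences between NOD groups, each with its probe set of smallest p in the T2FO comparison. The NOD arrays labelled T2FO have the highest group mean in each of the 6 panels, which follows in part from this choice.

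In translocation, 2 of the 6 probe sets of Sec61a1, the pore of the channel, rose by 0.56 ± 0.11 (1416189_a_at) and 0.48 ± 0.10 (1434986_a_at), and the other 4 differed by -0.23 to 0.45. In this role 15 of 17 translocation probe sets were above 0, with a median of 0.33. Ssr2, a subunit of the complex that assists translocation, differed by 0.52, and the 2 probe sets of Ssr3, another subunit, by 0.42 and 0.54, none past the threshold. The 2 probe sets of Kdelr2, the receptor that returns escaped chaperones from the Golgi, differed by 0.08 and 0.12.

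In degradation, Edem1, which extracts misfolded glycoproteins from the folding cycle, read 1.49 and 2.03 with 1424065_at, against at most 1.03 elsewhere in NOD (difference 1.64 ± 0.27). Its second probe set, 1451218_at, did not pass (0.46). Sel1l, the adaptor of the ubiquitin ligase encoded by Syvn1, read 0.61 and 1.57 with 1425187_at, against at most 0.36 (difference 1.07 ± 0.22), and its other 4 probe sets differed by -0.05 to 0.42. The replicates of Sel1l stood far apart. Derl3, part of the retrotranslocation channel, had the second largest difference of all members at 1.93, but its arrays at 1.20 and 2.75 overlapped those labelled FO, where it read -0.01 and 1.58, and it did not pass.

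The sensors and the transcriptional arm held no called probe set in this comparison. All 11 sensor probe sets were above 0, with a median of 0.20 and the highest value in Eif2ak3 (1.23). Atf4 and Ddit3, which encode the factors ATF4 and CHOP, differed by 0.12 to 0.65. Trib3, a target of both, ran the other way on its 2 probe sets (-0.30 and -0.28).

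The count of arrays, read without a test, runs the same way. Of the 89 members, 19 lay on both T2FO-labelled arrays above all 10 other NOD arrays, and 0 lay below them. Over all probe sets these shares were 3.30% and 4.51%.

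Members of the pathway outside the 36 genes were read from a list of 63 genes with 151 probe sets, of which 14 were called higher and 0 lower. They include 3 of Xbp1, the central factor of the response (differences of 1.13 to 1.14), Creb3l2, a membrane-bound factor (1.17 and 1.95), Fkbp11, a peptidyl-prolyl isomerase of secretory cells (1.79), and the cargo exporters Sec24d (2.72) and Lman1 (1.13 and 2.13). Asns, which ATF4 induces, was higher on 2 probe sets (0.86 and 1.36). Other probe sets of Xbp1, Fkbp11 and Lman1 were not called.

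Plasma cell genes, known from earlier results to be high in the arrays labelled T2FO and the reason for this comparison, were high beside these members. In the arrays labelled T2FO the median of 6 such genes was 1.79 and 2.57, and the other 11 groups had medians of -0.55 to 0.46. Of the 6 genes, 3 were called higher (Prdm1 by 2.02, Sdc1 by 3.01 and Tnfrsf17 by 2.08). Jchain differed by 3.99 without passing, and Irf4 and Mzb1 differed by 0.25 and 0.46. The early-response and heat-shock genes used as signs of handling were also highest there (group median 0.93), with 1 of 6 called (Hspa1a, 2.70). The part of either list in the result was not tested, and fewer cells of a type and less RNA per cell cannot be told apart in such bulk samples.

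**Figure D2:**
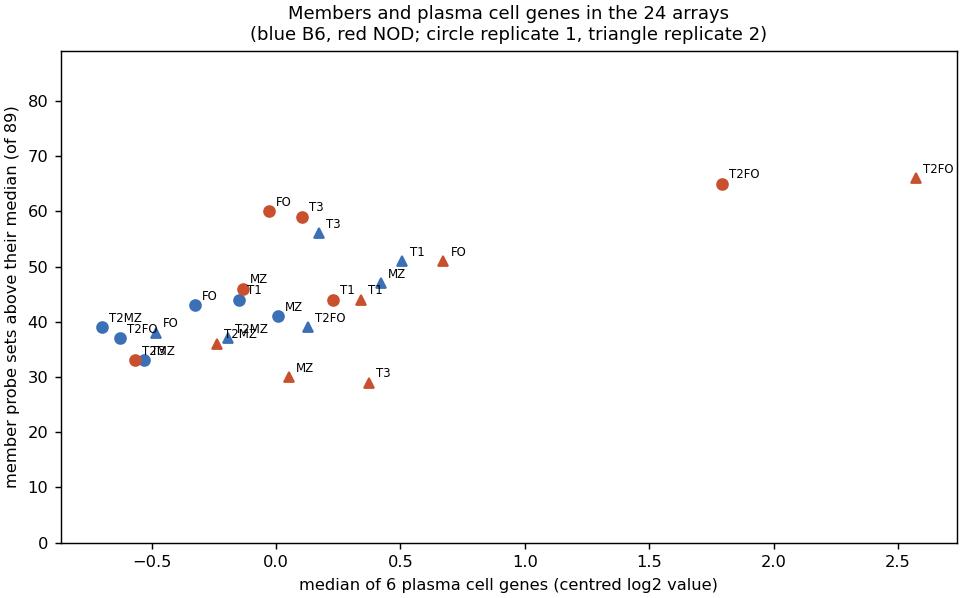
Number of the 89 member probe sets above their own median on each array (vertical axis) against the median centred log2 value of 6 plasma cell genes (horizontal axis), for 24 arrays named by subset label. The 2 NOD arrays labelled T2FO stand apart at the right, with 65 and 66 members above their median.

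The count rests on few arrays. It was 1 in place of 9 without replicate 2 of the NOD arrays labelled T2FO and 12 without replicate 1. With the 5' minus 3' difference of the actin control as a covariate it was 0 in limma, with 34 members at an unadjusted p under 0.05. That covariate partly coincided with the label. The 5' actin signal was -0.54, the lowest in NOD, and 0.09 in the arrays labelled T2FO. It was -0.09 in T3 replicate 2 and 0.37 or above in the other NOD arrays.

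In the NOD arrays labelled T1, which carry marginal zone transcripts, 5 member probe sets were lower and 3 higher than the mean of the other 5 NOD groups (limma with Benjamini-Hochberg adjustment). Of all probe sets 4.13% were called, 2.72% higher and 1.41% lower. The lower members were Txndc5 on both probe sets, Creld2, Hsp90b1 and Herpud1, and the higher ones Ern1, Atf6 and Edem1. The median over the 89 members was -0.02, the same as over all probe sets.

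Txndc5 fell by 1.42 ± 0.17 with 1451091_at, which read -1.38 and -0.88 in the arrays labelled T1 and at least -0.62 in all other NOD arrays. With 1423746_at it fell by 1.59 ± 0.31, and there the value of -0.02 in replicate 2 overlapped the other arrays. Herpud1, which links the degradation complex to the proteasome, read -0.49 and -0.44 with 1448185_at, below the -0.01 to 1.21 of the other NOD arrays (it fell by 0.98 ± 0.16). Its second probe set fell short of the threshold at -0.91. Hsp90b1 fell by 0.69 ± 0.13 with 1438040_a_at, while its second probe set differed by 0.09. Creld2 fell by 0.73 ± 0.17. The called probe sets of both genes overlapped the other NOD arrays.

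The comparisons of the T1 and T2FO labels share arrays, since each group is in the mean that the other is set against. With the T2FO-labelled arrays left out of that mean, a choice made after seeing the data, 5 of the 8 members stayed past the threshold. Hsp90b1 then differed by -0.43 (adjusted p = 0.133 in limma), Creld2 by -0.47 (adjusted p = 0.252) and Txndc5 1423746_at by -1.05 (adjusted p = 0.129), and none of the 3 passed. The like change for the T2FO label, leaving out the arrays labelled T1, kept 6 of its 9 probe sets past the threshold. Sel1l (1.04), Sec61a1 1434986_a_at (0.51) and Txndc5 1451091_at (0.84) were no longer called.

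The higher probe sets were single ones of their genes. Ern1, the sensor kinase and nuclease that splices Xbp1 RNA, read 0.57 and 0.83 with 1437119_at, which overlapped the T2FO-labelled arrays at 0.48 and 0.65 (difference 0.90 ± 0.18), and its other 4 probe sets differed by -0.16 to 0.33. Atf6 read 0.70 and 0.40 with 1435444_at, against at most -0.02 in the other NOD arrays (0.87 ± 0.19, other probe sets 0.05 and 0.53). Edem1 read 0.65 and 0.61 with 1451218_at, against at most 0.40 (0.76 ± 0.14). Its other probe set, the one that was higher in the arrays labelled T2FO, differed by -0.11.

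The differences of all 7 probe sets of the transcriptional arm from the mean of the other 5 NOD groups were below 0, with a median of -0.33 and none called. Ddit3 read -0.27 and -0.77 with 1417516_at, against 0.08 and 0.57 in the arrays labelled T2FO, and it varied across NOD groups without passing (adjusted p = 0.227 for the moderated F test of limma). By the count of arrays, 6 members lay below all 10 other NOD arrays and 4 above (3.61% and 5.35% of all probe sets). Of the 151 other pathway probe sets, 2 were lower, those of Fkbp11 (-1.63) and Sec24d (-1.67). Without either of the arrays labelled T1 only 1 member was called.

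Other marker lists moved in the arrays labelled T1 as well. All 5 marginal zone genes were called higher, with a median difference of 3.04. Of the 6 plasma cell genes 1 was called lower, Sdc1 (-2.58). The others ran both ways without a call: Jchain -1.15, Tnfrsf17 -0.70, Irf4 0.21, Mzb1 0.44 and Prdm1 0.89. Of the 10 myeloid genes 3 were called lower. The handling genes were lowest in the same arrays (group median -2.25, with replicates at -0.56 and -3.49), and 3 of 6 were called lower, namely Hspa1a (-3.59), Hspa1b (-3.55) and Egr1 (-2.00). The part of these lists in the member differences was not tested.

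**Figure D3:**
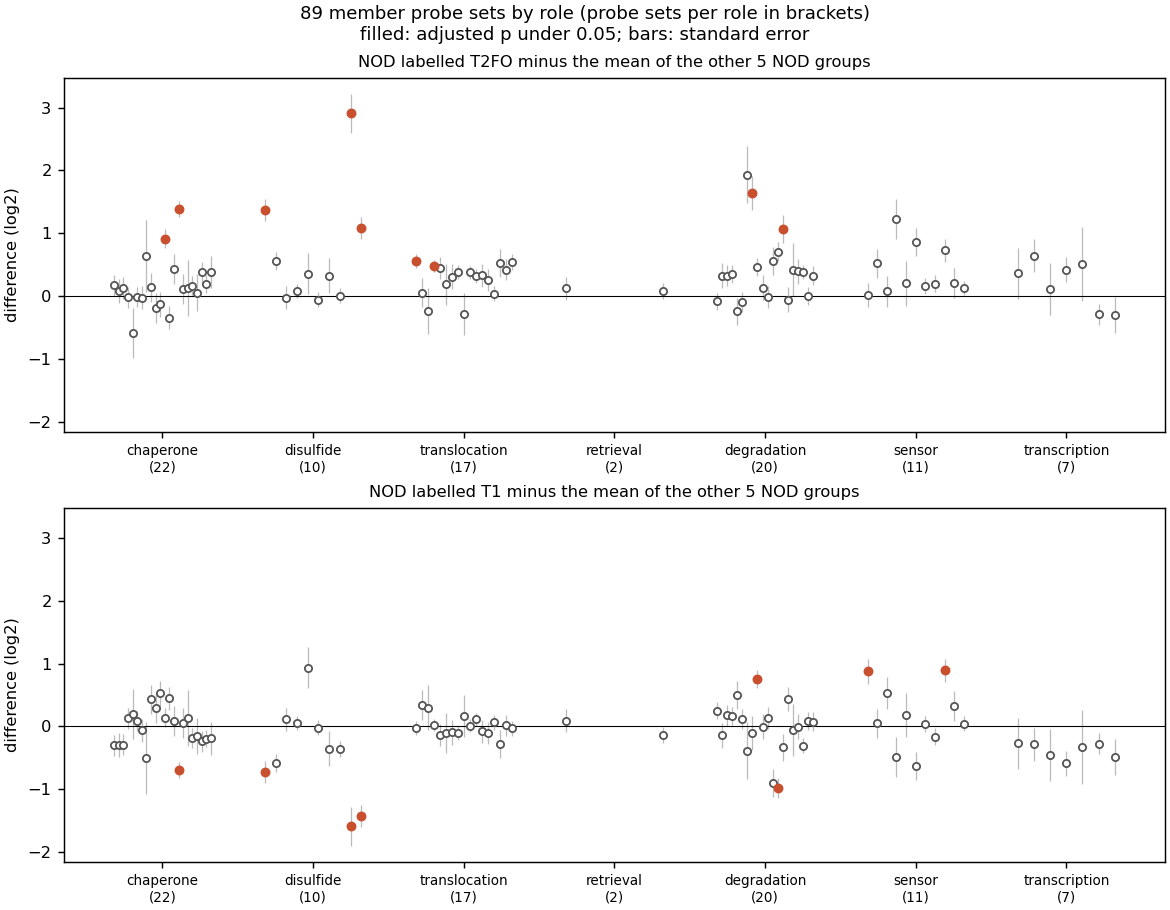
Differences (log2) of the 89 member probe sets, by role, for the NOD arrays labelled T2FO (upper) and T1 (lower) against the mean of the other 5 NOD groups; bars are standard errors and filled points have an adjusted p under 0.05. In the upper panel all 9 filled points lie above 0, and in the lower panel 3 lie above and 5 below.

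Across the 6 NOD groups without regard to which was which, 9 member probe sets differed by the moderated F test of limma, as did 3.21% of all probe sets. They were Hsp90b1 1438040_a_at, both of Txndc5, Creld2, both of Edem1, Herpud1 1448185_at, Ern1 1437119_at and Dnajc3 1449372_at. Of these Hsp90b1 had the lowest p (adjusted p = 0.0014): the arrays labelled T2FO were highest, those labelled T3 read 1.30 and 0.83, those labelled FO 0.93 and 0.94, those labelled MZ 0.85 and 0.76, and those labelled T1 and T2MZ were lowest, at 0.20 and 0.29 and at -0.05 and -0.16. The arrays labelled T3 overlapped both FO and MZ. In the retrieval role Kdelr2 stayed within -0.25 to 0.18 on the 12 NOD arrays with 1417205_at (limma, adjusted p = 0.979). Sec61a1 1416189_a_at, whose NOD arrays lay between -0.38 and 0.02 outside the T2FO label, had an adjusted p of 0.132 by this test in limma. The count was 3 or 4 without 1 of the arrays labelled T1, 4 or 5 without 1 of those labelled T2MZ, and 5 without replicate 2 of T2FO or replicate 1 of MZ.

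In B6 0 of 89 probe sets passed the F test across the 6 subsets, 0 the comparison of MZ with FO and 0 that of T1 with the other 5, in limma, while 9, 7 and 6 had an unadjusted p under 0.05. Of all probe sets 0.175%, 0.124% and 0.111% passed, so few features of any kind did. The 151 other pathway probe sets also held 0 called in each of the 3 tests. The median standard error of a member difference for T1 against the other 5 groups was 0.27 in B6 and 0.19 in NOD, and for MZ against FO in B6 it was 0.35. With the 5' minus 3' difference of the actin control as a covariate 2 members passed the F test and 2 the comparison of T1. With the replicate number as a block, crossed for FO and MZ after seeing the data, 2 passed the F test, 1 the comparison of MZ with FO and 2 that of T1 (19, 16 and 12 at an unadjusted p under 0.05).

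The B6 values of the members nearest to the threshold are given for their size. Eif2ak3, the kinase PERK, read 0.13 and 0.07 in MZ and -0.41 and -0.45 in FO with 1453505_a_at, a difference of 0.53 ± 0.13 (limma, adjusted p = 0.349). Its T1 arrays, at 0.19 and 0.24, were the highest in B6 and its T3 arrays were at -0.33 and -0.29. All 11 sensor probe sets were above 0 in MZ against FO, with a median of 0.51, against 50.4% above 0 over all probe sets. Myeloid and NK cell genes were high in MZ replicate 2 (list medians of 1.31 and 0.91), and their part was not tested.

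Derl3 read -0.98 and -0.93 in B6 FO, below all other B6 arrays, and -0.25 and 0.12 in MZ, 0.37 and 0.14 in T1 and 0.47 on both T3 arrays (adjusted p = 0.323 by the F test of limma). Txndc5 1423746_at was highest in T1, at 0.87 and 1.20, and lay between -2.03 and 0.17 in the other 10 B6 arrays. That difference of 1.68 ± 0.41 had an adjusted p of 0.373. Hspa5 1427464_s_at read 0.45 and 0.33 in MZ and -0.09 and 0.39 in FO, and every other B6 array lay at -0.27 or below (limma F test, adjusted p = 0.589). Among the remaining roles, Sec61a1 1416190_a_at stood out only in FO replicate 2 (0.97, with the other 11 B6 arrays at -0.18 to 0.18). Kdelr2 1417204_at ranged from -0.23 to 0.90 and Atf4 1448135_at from -0.92 to 0.60 over the 12 B6 arrays, each with an adjusted p of 1.00.

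Some members split the B6 arrays by replicate in place of subset. Hsp90b1 1438040_a_at read -2.54, -2.90, -3.49 and -3.21 in replicate 1 of T1, T2FO, T3 and T2MZ and 0.42, -0.29, 0.05 and -0.16 in replicate 2. Dnajc3 1449372_at read -3.02 to -2.34 and -0.13 to 0.18 in the same arrays. The low arrays are among those in which the 5' control was not low. FO and MZ read -1.20 to -0.28 on both probe sets.

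The contrast of T1 with the other 5 groups differed between the strains for 3 members by the test of the difference itself (limma on 24 arrays), against 2.50% of all probe sets, so 3 of 89 is near the background. For Txndc5 1423746_at it was -1.59 in NOD and 1.68 in B6, for Creld2 -0.73 and 0.25, and for Herpud1 1448185_at -0.98 and 0.54. The marker genes of the NOD arrays labelled T1, given above, stand beside each of these, and their part was not tested. The like difference for T2FO was called for 0 members in limma (9 at an unadjusted p under 0.05) and for 0.00444% of all probe sets, and the smallest adjusted p of a member in limma was that of Creld2 (1.37 in NOD, -0.12 in B6, adjusted p = 0.0872).

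To compare the strains without the subset labels, the 6 arrays of a strain and replicate number were averaged and NOD was set against B6 on the 4 means. Of the members, 3 probe sets were higher in NOD, 2 of Trib3 and 1 of Manf, and 1 of Canx was lower (limma with Benjamini-Hochberg adjustment). Of all probe sets 3.02% were called, 1.64% higher and 1.38% lower, so the 4.49% of the members is near the background. The median member difference was 0.12, against -0.03 over all probe sets.

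Trib3, a pseudokinase induced through ATF4 and CHOP, was the one member whose strains did not overlap. With 1456225_x_at the 12 B6 arrays lay between -0.76 and -0.16, with a median of -0.40, and the 12 NOD arrays between 0.16 and 1.68, with a median of 0.67. With 1426065_a_at they lay between -0.74 and -0.04 and between 0.04 and 0.86. The differences were 1.14 ± 0.14 (adjusted p = 0.0362) and 0.92 ± 0.12 (adjusted p = 0.0414) in limma. Both probe sets together are 2 of 89 members without overlap, and such probe sets were 2.40% of all.

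Other targets of ATF4 on the pathway list were higher in NOD on 1 probe set each. They were Asns (1.09 ± 0.10 with 1451095_at) and Sesn2 (0.99 ± 0.11 with 1425139_at), a regulator of nutrient signalling. The second probe sets, 1433966_x_at of Asns and 1451599_at of Sesn2, were not called. The called ones were 2 of the 32 probe sets of that arm's list, whose median difference was -0.02. Atf4 itself read -0.55 to 1.12 in NOD and -0.92 to 0.60 in B6 with 1448135_at and did not pass. Elsewhere on the list 1 probe set of Os9, a lectin of the degradation complex, was higher (1.37). For Vcp, the ATPase that draws proteins out of the membrane, 1 probe set was lower by a wide margin (-4.39 ± 0.10 with 1457588_at). The second probe sets, 1426974_at of Os9 and 1423030_at of Vcp, were not called.

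Canx, the membrane-bound lectin chaperone calnexin, was lower in NOD with 1428935_at. Its B6 arrays ran from -0.15 to 1.05, with a median of 0.48, and its NOD arrays from -0.78 to 0.09, with a median of -0.35 (difference -0.92 ± 0.12, adjusted p = 0.0437 in limma). The direction was not shared by all probe sets of the gene, since the other 2 differed by -0.52 and 0.31. Manf ran from -1.01 to 0.44 in B6 and from -0.40 to 0.75 in NOD, with medians of -0.42 and 0.27 (difference 0.65 ± 0.09, adjusted p = 0.0456 in limma).

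The other roles had no called member in the strain comparison. Edem2 1423695_at came nearest, with B6 arrays from -1.88 to 0.26, NOD arrays from -0.07 to 0.71 and a difference of 0.96 ± 0.14 (adjusted p = 0.0523 in limma). The second probe set of Edem2, 1444335_at, differed by -0.002. Kdelr2 1417204_at was lower in NOD, from -0.23 to 0.90 in B6 and from -0.57 to 0.24 in NOD (-0.51 ± 0.09), while its second probe set differed by 0.46. The sensor PERK read -1.52 to 0.04 in NOD and -0.12 to 0.99 in B6 with Eif2ak3 1449278_at, a difference of -1.19 ± 0.25 that did not pass (limma, adjusted p = 0.0934), and its other 2 probe sets differed by -0.18 and 0.12. Ssr1, of the translocation complex, was between -0.61 and 0.52 in B6 and between -0.68 and 0.15 in NOD with 1417764_at (limma, adjusted p = 0.174), and all 4 of its probe sets were below 0. The largest differences of all, in Hsp90b1 1438040_a_at (2.05) and Dnajc3 1449372_at (1.63), did not pass, and their B6 replicates were split as given above.

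**Figure D4:**
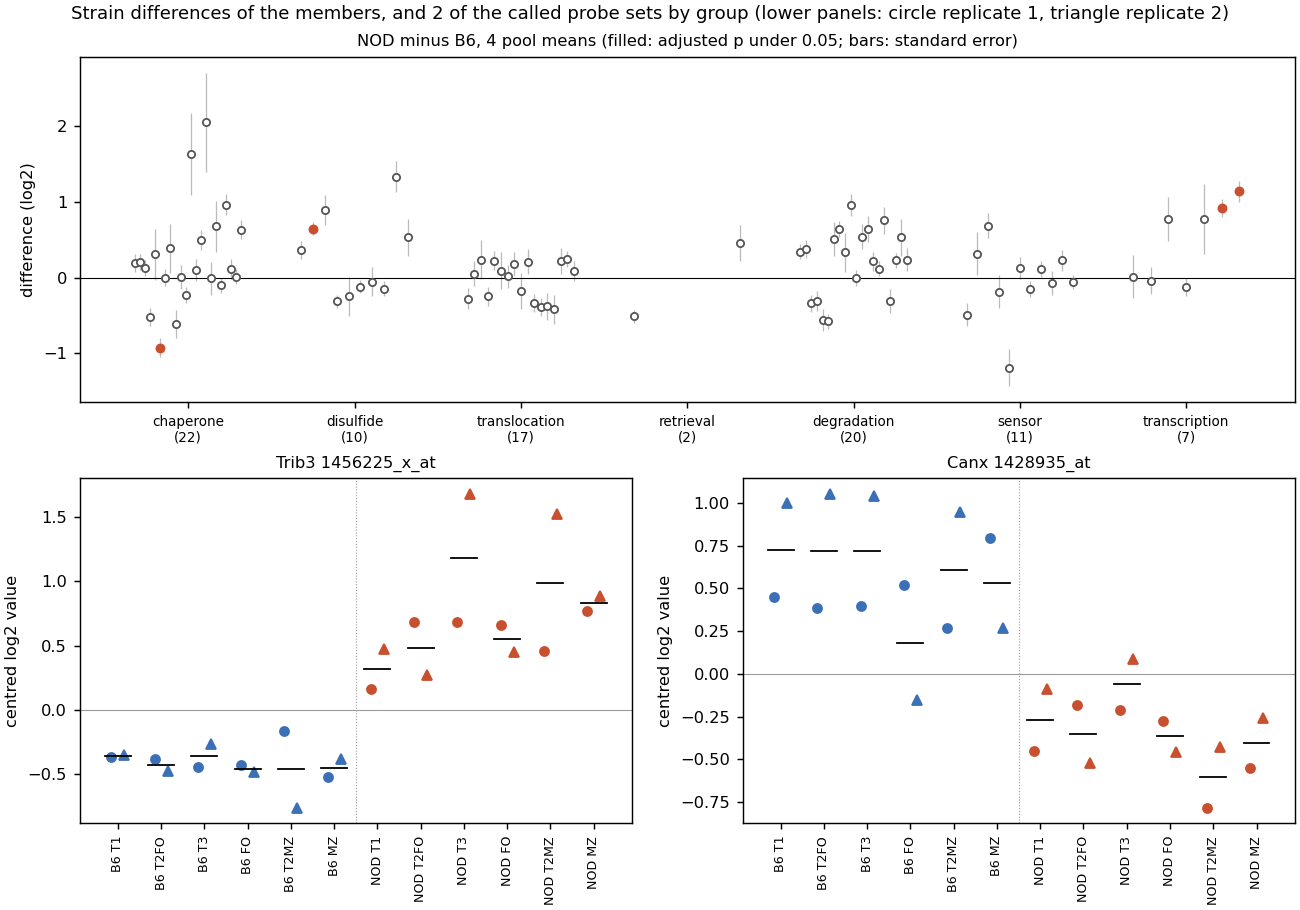
Upper panel: NOD minus B6 difference (log2, 4 pool means) of the 89 member probe sets by role, with standard errors and filled points for an adjusted p under 0.05. Lower panels: centred log2 values of Trib3 1456225_x_at and Canx 1428935_at on the 24 arrays by labelled group (circles replicate 1, triangles replicate 2, lines the mean); the strains are separate for Trib3 and overlap for Canx.

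The calls depend on which arrays form a pool. The replicate numbers of B6 FO and MZ ran against those of the other B6 subsets, and with them crossed 0 members were called in limma (20 at an unadjusted p under 0.05). Leaving out either NOD pool also left 0, with 17 and 22 at an unadjusted p under 0.05, and leaving out either B6 pool gave 12 and 10. With the 5' minus 3' difference as a covariate the count was 0 as well (16 at an unadjusted p under 0.05). Without the 6 B6 arrays of low 5' signal it was 33, in a fit that took single arrays, not pools, as independent. All 24 arrays taken in that way gave 31, so the 33 cannot be set against the count from pool means.

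At a single label the strains could be compared on 2 arrays each, with the spread taken from all 24 arrays. At T1 0 of 89 were called by limma (11 at an unadjusted p under 0.05), against 6.31% of all probe sets, while 7 of the 151 other pathway probe sets were higher and 5 lower. At T3 and T2MZ 2 were called, both probe sets of Trib3 each time (1.54 and 1.01, then 1.45 and 1.09), against 1.72% and 2.73% of all probe sets. At MZ 1 was called, Trib3 1426065_a_at at 1.13 ± 0.23 (2.52% of all probe sets). Each of these counts fell to 0 without replicate 2 of the B6 group at that label, and without replicate 2 of the NOD group as well. At MZ it was also 0 without NOD replicate 1 and 4 without B6 replicate 1. Where it was 0 in limma, 8 to 16 members had an unadjusted p under 0.05. With the 5' minus 3' difference of the actin control as a covariate more members were called at these labels, 9 at T1, 8 at T3, 10 at T2MZ and 8 at MZ, and also 14 at T2FO and 12 at FO.

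At T2FO 6 probe sets of 6 genes were called, all higher in NOD (2.58% of all probe sets were called and 1.27% called higher). They were Txndc5 (3.62 ± 0.50, adjusted p = 0.0012 in limma), Derl3 (2.24 ± 0.50), Edem1 (1.80 ± 0.35), Creld2 (1.62 ± 0.22), Sel1l (1.21 ± 0.25) and Ssr3 1447053_x_at (0.72 ± 0.16). Of the 151 other pathway probe sets 15 were higher and 1 lower. The other member probe sets of these genes were also above 0, from 0.14 to 1.36. For Creld2 the B6 arrays read -0.22 and 0.04 against the 1.49 and 1.57 of NOD, and for Derl3 -0.03 and -0.50 against 1.20 and 2.75. The NOD arrays are the same as in the comparison within NOD, so the plasma cell genes given there stand beside this result too. NK cell genes were high in B6 T2FO replicate 2 (list median 1.87), and their part was not tested. Without B6 T2FO replicate 1 the count was 3, and without replicate 2 of either strain it was 2. With the spread taken only from the 4 arrays compared, 0 members were called in limma at T2FO, T3, FO, T2MZ or MZ, with 11 to 25 at an unadjusted p under 0.05.

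At FO 3 were called (2.88% of all probe sets): Edem1 1424065_at (1.67 ± 0.35) and Herpud1 1448185_at (1.21 ± 0.26) were higher in NOD, and Derl2, of the same channel as Derl3, was lower (-0.92 ± 0.23, second probe set -1.11). Herpud1 read 0.50 and 0.90 in NOD and -0.65 and -0.37 in B6, and Edem1 0.29 and 1.03 against -1.34 and -0.68. The NOD arrays labelled FO also had high myeloid genes (list medians of 2.25 and 1.79), whose part was not tested. Without B6 FO replicate 1 or NOD FO replicate 2 the count was 0 in limma, with 15 and 9 at an unadjusted p under 0.05, and it was 1 without B6 FO replicate 2 and 5 without NOD FO replicate 1.

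The NOD replicates were also set against each other within each label. Of the 89 members, 8 read higher in replicate 1 than in replicate 2 of every one of the 6 groups, and 3 lower, against 7.23% and 4.52% of all probe sets, so the shares of the members are near the background. Hspa5 1427464_s_at read 1.12, 0.84, 0.98, 0.84, 0.53 and 1.06 in replicate 1 of T1, T2FO, T3, FO, T2MZ and MZ, and -0.07, 0.20, -0.61, 0.25, -0.27 and 0.07 in replicate 2. Of its other 2 probe sets, 1416064_a_at ran the same way in all 6 groups (median gap 0.49) and 1447824_x_at did not (0.03).

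Whether members with a stress element in the promoter moved apart from the others was read as a description. In the NOD arrays labelled T2FO, 17 of 25 probe sets of the 11 genes with either form were above 0 (median 0.13, 3 called) and 35 of 44 probe sets of the 18 genes without one (median 0.34, 4 called). In the arrays labelled T1 the medians were 0.05 and -0.05, and between the strains 0.20 and 0.10. Txndc5, Edem1 and Sel1l, 3 of the 7 genes higher in the arrays labelled T2FO, had neither form in the 300 bases searched, and Sec61a1 was not matched in the promoter table.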

How the data were processed

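RNA was amplified from its 3' end and hybridised to Affymetrix arrays that cover the mouse genome. The authors made the deposited log2 values with RMA, per the submitters' processing notes. Neither its version nor the log base was given in the sources used here (base 2 was taken). Every probe set is centred on its median over the 24 arrays, so signal over background is unknown.

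Differences were fitted with limma 3.58.1 in R 4.3.3 (lmFit and eBayes) over 45037 probe sets other than controls, with Benjamini-Hochberg adjustment and a threshold of 0.05. Within a strain its 12 arrays were used, for the strain overall 4 pool means, and at 1 label all 24 arrays. The fits were also run on simulated data in which every array varied independently. Such data cannot show how correlated arrays affect the tests. Plots used Python 3.11.15 and matplotlib 3.10.9. The genes, the pathway lists and the marker lists were chosen with earlier results of these data known. So were the comparisons of the NOD T1 and T2FO labels. By rule, each comparison names its called probe sets, and the tests across the 6 groups of a strain and between the strains name the one of lowest p in each role. All others given with values (such as Derl3, Pdia3 and Ssr2 in the T2FO label, Eif2ak3 and Txndc5 in the B6 contrasts, and Hspa5 between NOD replicates) were chosen after their values were seen. A planned search of protein ends was not run. Replicates came from separate pools and experiments, and with 2 per group their number limits the precision. Deviations of same-numbered B6 arrays correlated by 0.71 to 0.87 within T1, T2FO, T3 and T2MZ and between FO and MZ. Across those sets they correlated by -0.62 to -0.37. In NOD the correlations were -0.04 to 0.51, above 0.1 in 12 of 15 pairs. Because the numbers ran against each other in B6, they were not used as a block in the fits within either strain. In NOD this left a pairing unused, and with the block the T2FO count was 16 in place of 9. The pool means do join arrays of the same number, which in B6 includes arrays that ran against each other. Normalisation choices, probe set choice, blocks, the 5' minus 3' difference of the actin control as a covariate and leaving out each array were tried as alternatives.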

Additional observations from a re-analysis of the deposited data

Results flagged for a closer look

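The difference between the T1 arrays and the mean of the other 5 groups of a strain was itself different between NOD and B6 for 3 members, by an interaction test in limma on 24 arrays with Benjamini-Hochberg adjustment that was added after seeing the data. Of all probe sets 2.50% were called in the same test, so 3 of 89 members is near the background. For Txndc5 (1423746_at), the disulfide isomerase, the NOD difference minus the B6 difference was -3.27 (adjusted p = 0.0036), with both NOD arrays labelled T1 below the NOD median and both B6 arrays above all other B6 arrays. For Creld2 it was -0.98 (adjusted p = 0.0434). For Herpud1 (1448185_at) it was -1.53 (adjusted p = 0.0068). The NOD arrays labelled T1 carried high marginal zone transcripts (median of 5 genes 3.40 and 3.18), which B6 T1 did not (-0.41 and -0.57), and the part of this in the differences was not tested.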

How the results depend on the processing

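Of 890 recomputed values of single called probe sets, 680 kept their direction and call, 206 kept their direction without the call, and 4 reversed. Many of them could hardly change. In a strain comparison at a single label, leaving out an array of another label keeps the difference and alters only the spread. The reversals came from taking the most variable probe set of a gene: Edem1 in the NOD T1 label then differed by -0.11, Sec61a1 (both called probe sets) in the NOD T2FO label by -0.23, and Canx between strains by 0.31; by construction these are other probe sets. Scaling to the array median kept all counts within 1.5 times.

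Counts of called members follow, in limma. With the mean per gene the count across NOD labels was 5, for T1 in NOD 4, and between strains 1 at T3 and 1 at T2MZ; with the most variable probe set the last 3 were 5, 1 and 1. Without probe sets that may cross-hybridise the strain counts at T3 and T2MZ were 1 and 1, and without the less variable 50% of probe sets the strain counts were 10 over all labels, 1 at T3 and 3 at MZ. With the 5' minus 3' difference of the actin control as a covariate the counts were 2 across B6 subsets, 2 for B6 T1, 0 for T2FO in NOD (34 at an unadjusted p under 0.05), 0 between strains over all labels (16), and by label 9 (T1), 14 (T2FO), 8 (T3), 12 (FO), 10 (T2MZ) and 8 (MZ). With all 24 arrays in the fit they were 3 for T1, 5 for T2FO and 4 across labels in NOD, and with 24 arrays taken as independent the strain count over all labels was 31. With only the 4 arrays compared the strain counts were 0 at T2FO, T3, FO, T2MZ and MZ (11 to 25 at an unadjusted p under 0.05). Chosen after seeing the data, leaving out the 6 B6 arrays of lowest 5' signal gave 33 for the strain count over all labels, again with arrays taken as independent. Leaving the T2FO label out of the mean that T1 in NOD is set against, also chosen then, gave 5 for T1. The cause of these changes was not tested.

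The replicate block changed 3 counts by over 1.5 times: T2FO in NOD to 16, the strain count over all labels to 0 (29 at an unadjusted p under 0.05) and MZ to 2. With the pool as a random block these were 14, 21 and 2. Chosen after seeing the data, crossing the numbers of B6 FO and MZ gave 2 across B6 subsets, 1 for MZ against FO and 2 for T1 as a block, and 0 between strains as pools (20 at an unadjusted p under 0.05).

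Leaving out 1 array gave 0 in every case for the 3 B6 comparisons, 3 to 9 across NOD labels, 1 to 10 for T1 and 1 to 12 for T2FO in NOD. Between strains it gave 0 to 12 over all labels (leaving out a pool), 0 to 1 at T1, 2 to 8 at T2FO, 0 to 2 at T3, 0 to 5 at FO, 0 to 2 at T2MZ and 0 to 4 at MZ. Where 1 array of a group remained, it was assumed to vary like the other groups.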
